A study of Drosophila melanogaster with 3 samples.

Results

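The 92 genes of the cytoplasmic ribosome described here are the protein-coding genes of the Ensembl annotation of dm6 with symbols that start with RpL or RpS and a digit, together with RpLP0, RpLP1, RpLP2 and sta, of 13945 protein-coding genes in all. By symbol they hold 53 genes of the large subunit and 39 of the small subunit, and genes of the mitochondrial ribosome were left out. Whether each product is a part of the ribosome was not checked, which matters most for symbols that end in -like. The rule on symbols uses no measured value, but this set and the gene lists set beside it were taken up with earlier results of these data known. The study mapped the binding of a Dbx-eGFP fusion protein by chromatin immunoprecipitation and sequencing with an anti-GFP antibody. Chromatin came from whole Drosophila melanogaster embryos collected between 8 and 24 h of age, of a transgenic strain that makes the fusion protein. There were 3 biological replicates of this 1 group, so no treatment or genotype is compared, and each value of the ribosomal protein genes is set beside that of the other genes. The control experiment was not analysed here, so no value from chromatin without this immunoprecipitation stands beside these counts. The labels do not say which promoter drives the fusion protein or whether the endogenous Dbx gene was intact.

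Ribosomal proteins are needed in near equal amounts, since each ribosome holds nearly all of them, and their genes are among the most actively transcribed in any growing cell. In flies, loss of 1 copy of many of them gives the Minute phenotype of slow development and short bristles. Their transcripts start in a stretch of pyrimidines, the TCT initiator, in place of the usual initiator, and the factors TRF2, DREF and M1BP act at their promoters. Dbx, the immunoprecipitated protein, is a homeodomain transcription factor known from interneurons of the ventral nerve cord.

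The promoters of the strongest sites show the letters under the summits. The sequences below are those of the 6 ribosomal protein genes of highest signal in the conservative list that were nearest to a summit in every replicate list. Each runs from 150 bases before the transcription start site (TSS) furthest upstream to 30 bases from it on, read 5′ to 3′ on the gene's strand, in the RefSeq sequence of dm6. Capitals mark the DRE core ATCGAT, the Motif 1 core GGTCACAC, Motif 7 as CANCNCTA and the word CCGGAAA, each on either strand, and runs of 6 or more pyrimidines that touch the 10 bases either side of the TSS.
RpL7, chr2L:10200854-10201033, plus strand: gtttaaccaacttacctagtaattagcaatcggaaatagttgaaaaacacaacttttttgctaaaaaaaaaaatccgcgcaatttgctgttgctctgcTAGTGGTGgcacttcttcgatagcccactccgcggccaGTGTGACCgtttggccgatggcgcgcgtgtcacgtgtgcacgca
RpS27, chr3R:25247485-25247664, minus strand: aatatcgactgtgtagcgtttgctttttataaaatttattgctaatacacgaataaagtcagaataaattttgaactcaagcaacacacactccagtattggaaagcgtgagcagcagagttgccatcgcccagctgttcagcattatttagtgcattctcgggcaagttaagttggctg
RpL23A, chr3L:1668625-1668804, minus strand: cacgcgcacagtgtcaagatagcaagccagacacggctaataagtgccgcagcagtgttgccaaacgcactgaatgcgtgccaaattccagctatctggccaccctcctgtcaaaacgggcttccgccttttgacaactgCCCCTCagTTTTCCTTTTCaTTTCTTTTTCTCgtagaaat
RpL32, chr3R:30046132-30046311, minus strand: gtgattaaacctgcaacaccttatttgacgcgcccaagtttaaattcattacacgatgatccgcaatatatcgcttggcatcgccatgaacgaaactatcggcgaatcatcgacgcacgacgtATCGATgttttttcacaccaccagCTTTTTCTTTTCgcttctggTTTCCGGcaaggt
RpL34b, chr3R:9401197-9401376, minus strand: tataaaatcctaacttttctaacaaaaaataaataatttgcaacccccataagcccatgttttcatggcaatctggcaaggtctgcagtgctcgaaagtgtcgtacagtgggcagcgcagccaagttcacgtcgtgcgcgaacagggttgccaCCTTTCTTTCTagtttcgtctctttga
RpL14, chr3L:8600856-8601035, plus strand: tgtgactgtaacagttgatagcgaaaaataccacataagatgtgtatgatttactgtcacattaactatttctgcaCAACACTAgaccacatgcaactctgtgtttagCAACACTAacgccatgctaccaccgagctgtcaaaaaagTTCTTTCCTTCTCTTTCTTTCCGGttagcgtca
RpL7 held a Motif 7 match that starts 52 bases and a Motif 1 match that starts 14 bases before the TSS, and no marked run of pyrimidines. Its conservative summit lay 22 bp downstream of the TSS. RpL14 held Motif 7 matches that start 74 and 42 bases before the TSS, and its run of pyrimidines overlaps a match to TTTCCGG, the reverse complement of CCGGAAA, at position 14. RpL32 held a DRE core 27 bases before the TSS and TTTCCGG at position 17. RpL23A and RpL34b had marked pyrimidines alone, and the printed stretch of RpS27 had no mark. From the TSS of most transcripts, which for RpS27 lies further downstream, its run of pyrimidines was 11 bases long. TAATTA, a core that many homeodomains bind, was not marked. In the promoter window searched below, RpL7 and RpL14 held it, and RpS27, RpL23A, RpL32 and RpL34b did not. At RpL7 a match stands in the printed stretch.

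Dbx-eGFP peaks sat at the promoters of most ribosomal protein genes. In the conservative list of 4943 peaks, 64 of the 92 genes (69.6%) were the nearest protein-coding gene to at least 1 summit, the base of highest enrichment in a peak. Over all 13945 protein-coding genes the share was 23.9%. Each of the 64 had such a summit within 250 bp of its own TSS, a promoter summit. The share with a promoter summit was thus also 69.6% of the 92 genes, against 17.0% of all genes. Among the 3275 other genes nearest to a summit, 2301 had a promoter summit. Of the 64 genes, 55 were nearest to 1 summit at any distance, 8 to 2 and 1 to 3.

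The replicate lists gave the same picture with fewer genes in replicate 3, which also had the fewest peaks. In replicate 1, with 3701 peaks, 67 ribosomal protein genes (72.8%) were nearest to a summit, against 19.1% of all genes. Replicate 2, with 3353 peaks, gave 62 of them (67.4%), against 18.3%. In replicate 3, with 2519 peaks, the count was 53 (57.6%), against 14.4%. The mean over the 3 replicates was 65.9% ± 7.71 for ribosomal protein genes and 16.9% ± 2.48 for the other protein-coding genes (SD, n = 3 each). The groups did not overlap, and the gap was larger than the spread of either. With a promoter summit required, the replicate counts were 64, 61 and 53 ribosomal protein genes, against 13.4%, 12.5% and 8.91% of all genes. An exact sign-flip test over 3 replicates cannot go below p = 0.25, so no p is given for this gap.

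Hits recurred in the same genes. Of the 92 ribosomal protein genes, 50 (54.3%) were nearest to a summit in all 3 replicate lists, against 10.5% of all protein-coding genes. A further 10 were hit in 2 lists, 12 in 1 list and 20 in none. Among the other protein-coding genes, 5.92% were hit in 2 lists, 8.24% in 1 and 75.6% in none. The conservative list held 49 of the 50 genes hit in every replicate, 9 of the 10 hit in 2, 5 of the 12 hit in 1, and RpS9 alone of the 20 hit in no replicate list. RpS9, a gene of the small subunit, was listed there at rank 3527, 86 bp upstream.

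**Figure D1:**
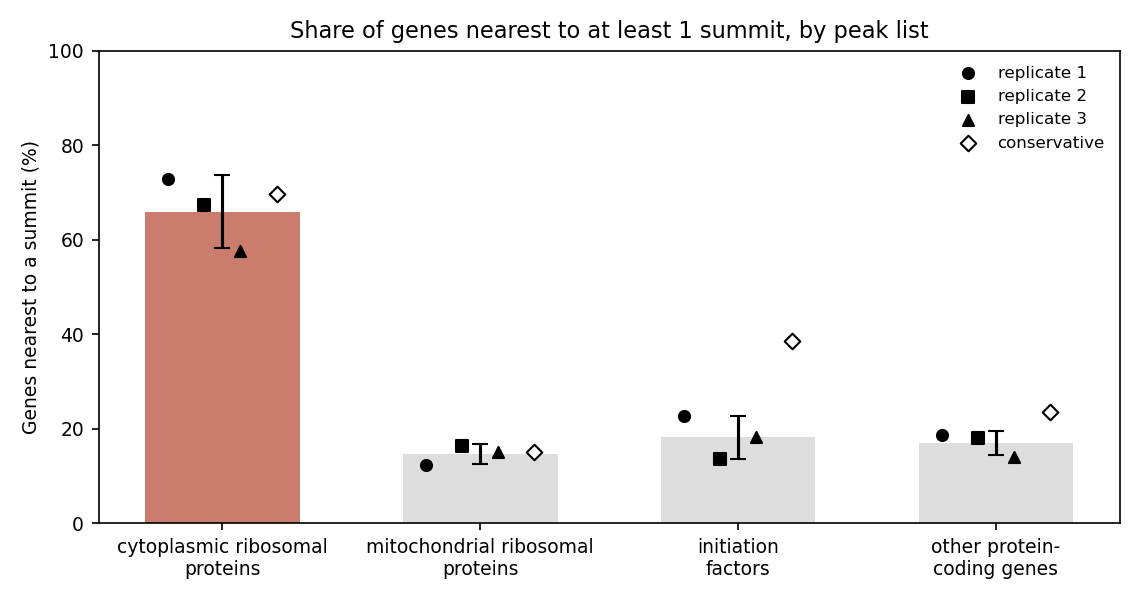
Share of genes, in percent, that were nearest to at least 1 summit, for cytoplasmic ribosomal protein genes, mitochondrial ribosomal protein genes, translation initiation factors and the other protein-coding genes. Bars are means and error bars SD over the 3 replicate lists, points are single lists. The cytoplasmic ribosomal protein genes lie between 57.6% and 72.8% in the replicates, above every point of the other groups.

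Other genes of translation were hit less evenly, as the plot of shares by list shows. Of 73 mitochondrial ribosomal protein genes, whose products form the ribosome inside mitochondria, 11 (15.1%) were nearest to a conservative summit, and the replicate mean was 14.6% ± 2.1 (SD, n = 3), within the spread of the other protein-coding genes. Translation initiation factors, which load the small subunit onto mRNA, stood at 17 of 44 (38.6%) in the conservative list and at 18.2% ± 4.55 in the replicates (SD, n = 3). Of 7 elongation factor genes, 4 were hit in the conservative list and in each replicate. They were eEF1alpha1, which brings aminoacyl-tRNA to the ribosome, at rank 586, eEF2, the translocase, at rank 1055, eEF5 at rank 1117, and eEF1gamma, whose summit at rank 64 had a position of −5722 bp, far upstream of its TSS. A second summit of eEF1gamma lay at −35 bp, at percentile 94.7. Both genes of the ribosome-associated list were hit in every list. Rack1, which encodes a scaffold protein bound to the small subunit, had its best conservative summit at rank 462, and RpLP0-like at rank 519. Of 12 ribosome biogenesis genes, 6 were hit in the conservative list, and 5, 6 and 3 in replicates 1, 2 and 3. The best placed was eIF6, an anti-association factor of the large subunit, at rank 8 with a summit 99 bp upstream. By its symbol eIF6 is also counted among the 44 initiation factors. Of the 3 genes for factors named above as acting at these promoters, Trf2 was listed at rank 2540, while Dref and M1BP were nearest to no summit of the conservative or replicate lists. RpL13 and Dref start 84 bp apart on opposite strands, and the conservative summit between the 2 start sites, 27 bp upstream of RpL13 at rank 1406, was nearer to RpL13.

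Signal ordered the ribosomal protein genes over a wide range. Signal, the authors' enrichment value of a peak, can be compared only within a list, so each gene is given by the rank of its best summit and by its percentile, where 100 is the strongest peak. The best ranked ribosomal protein gene in the conservative list was RpL7 at rank 95 and the last was RpS13 at rank 4169. The median percentile of the 64 hit genes was 80.2, against 61.0 for the 3275 other hit genes. All of the 64 had a promoter summit, while 2301 of the 3275 did, so the others also include genes hit only further from a TSS. The other genes of each replicate list were mixed in the same way. Of the 64, 54 (84.4%) lay in the upper 50% of the list, against 61.0% of the other hit genes. In the top 10% there were 13 (20.3%), against 14.3%.

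In the replicates this difference in rank was smaller, and least in replicate 3. The median percentiles of ribosomal protein genes were 70.7, 72.8 and 58.2 in replicates 1, 2 and 3, against 58.9, 57.6 and 56.5 for the other hit genes. Replicates 1 and 2 showed a gap, and in replicate 3 the medians were close. The means were 67.2 ± 7.89 and 57.7 ± 1.2 (SD, n = 3 each), so the gap was about as large as the spread between replicates of the ribosomal protein genes. The share in the top 10% averaged 13.4% ± 4.26 for ribosomal protein genes and 12.9% ± 0.513 for the others (SD, n = 3 each), a difference within the spread.

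**Figure D2:**
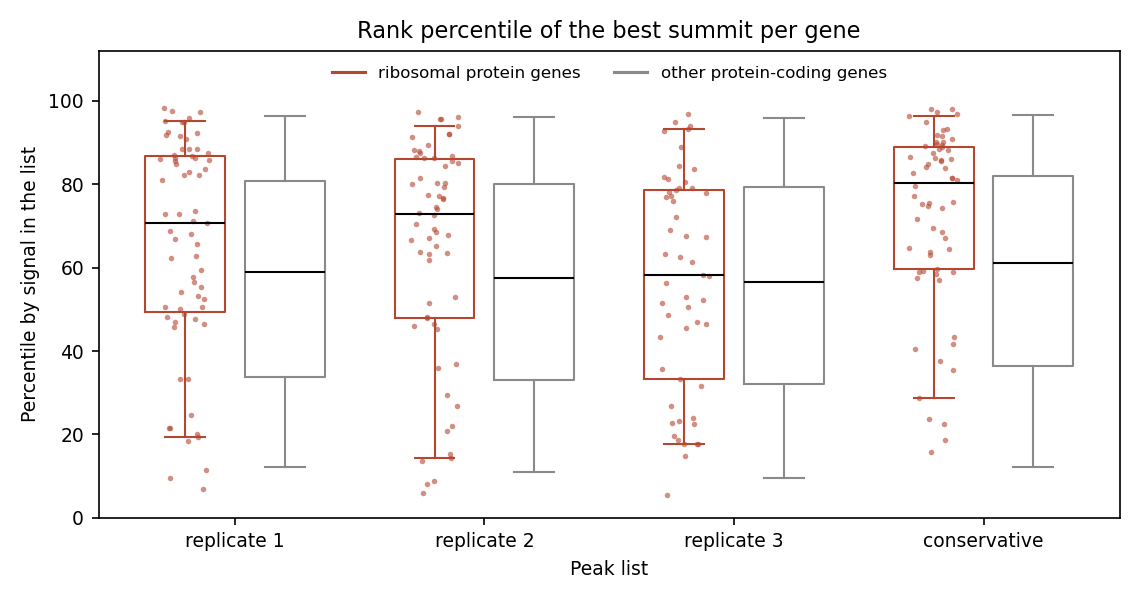
Percentile by signal of the best summit of each hit gene in each list, for ribosomal protein genes and the other protein-coding genes. Boxes span the quartiles with the median as a line, whiskers run from the 5th to the 95th percentile of the genes, and points are single ribosomal protein genes. The medians are 80.2 and 61.0 in the conservative list and 58.2 and 56.5 in replicate 3.

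The order of the ribosomal protein genes was shared between replicates. Spearman's rho over genes hit in both lists was 0.802 between replicates 1 and 2 (n = 58 genes), 0.603 between 1 and 3 (n = 51) and 0.782 between 2 and 3 (n = 51). For the other genes these values were 0.793, 0.769 and 0.83. They describe genes of the same libraries, which are not independent replicates. Single genes of the large subunit departed from this order. RpL19 had ranks 274 and 356 in replicates 1 and 2 but 1725 in replicate 3, and RpL31 had ranks 430, 988 and 2072.

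**Figure D3:**
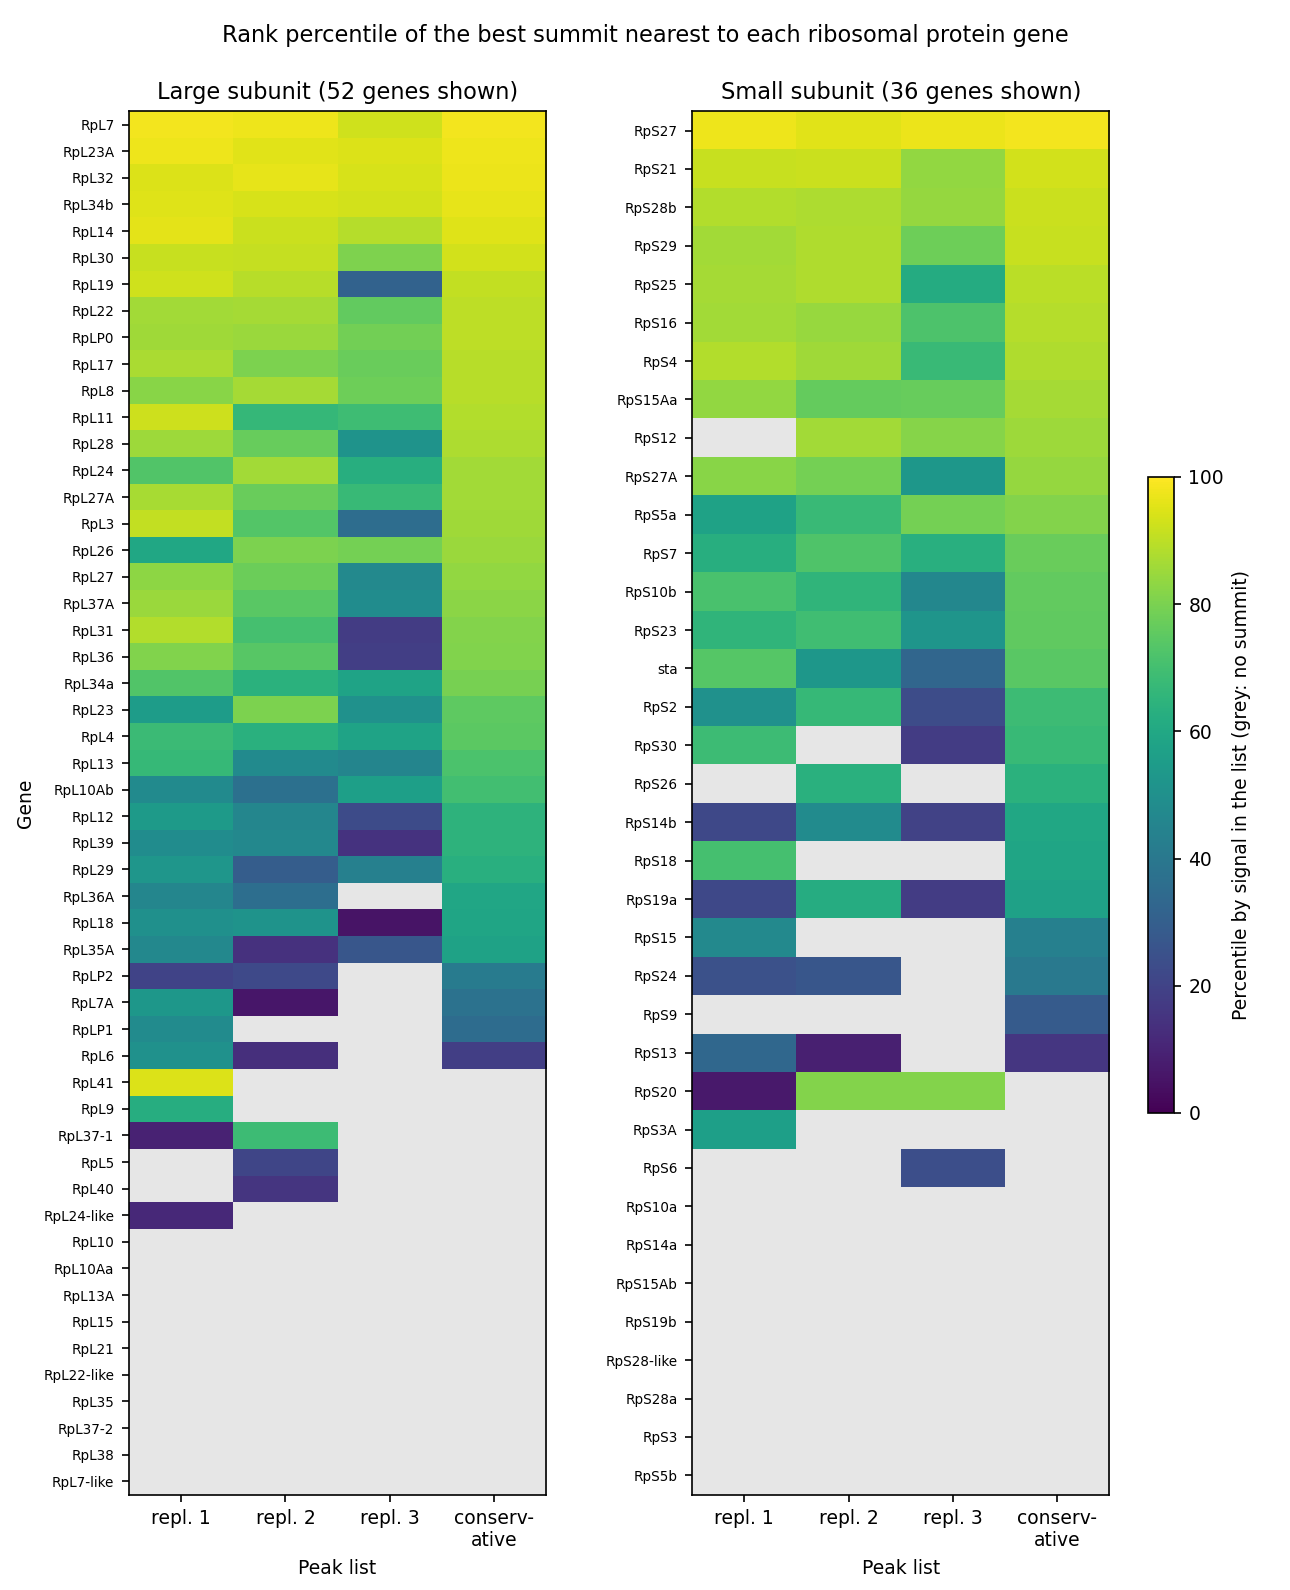
Percentile by signal of the best summit nearest to each ribosomal protein gene shown, in rows by subunit, in the 3 replicate lists and the conservative list. Yellow is the strongest and grey means that no summit was nearest to the gene. RpL7 and RpS27 head the subunits, and most of the genes that are grey in the conservative list are grey in the replicates as well.

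RpL7 had a signal of 307.6, 287.9 and 192.4 in replicates 1, 2 and 3, at ranks 63, 92 and 182. Its product is a protein of the large subunit, and its conservative signal of 798.9 was the highest of the family. RpS27, a zinc finger protein of the small subunit, had signals of 253.0, 236.3 and 277.4 at ranks 102, 144 and 80, with a conservative rank of 97. Replicate 3 placed RpS27 above RpL7 and the other 2 placed RpL7 first.

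RpL23A, which lines the exit of the peptide tunnel, stood at ranks 95, 146 and 130 in the replicates and at 128 in the conservative list. RpL32, the gene widely used as a reference in fly expression studies, stood at 191, 129 and 155, and at 153 in the conservative list. RpL34b stood at 176, 201 and 173, and at 178. These 3 large subunit genes lay within the top 10% of every list. RpL14 followed at 157, 271 and 279, RpS21 at 308, 268 and 414, RpL30 at 313, 289 and 490, RpS28b at 431, 420 and 397, and RpS29 at 518, 400 and 556. All 10 lay within the top 10% of the conservative list, while RpS28b and RpS29 did so in no replicate list, and RpL14, RpS21 and RpL30 in replicates 1 and 2 alone.

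At the low end, RpS13 (conservative rank 4169), RpL6 (4025) and RpS9 (3527) were among the genes with the weakest best summits of the 64. None of these 3 was nearest to a summit in replicate 3. RpS23, next to the decoding centre of the small subunit, was the one hit gene whose strongest conservative summit lay beyond 250 bp. That summit was 1618 bp downstream of its nearest TSS at rank 1217, and a second one lay 9 bp upstream, at percentile 66.8. RpLP2, one of the acidic proteins of the ribosomal stalk, had its best conservative summit 6 bp upstream. Its best summits in replicates 1 and 2 had positions of −2116 and −2145 bp, far upstream. Replicate 2 also had a weaker summit, at rank 2941, within 250 bp of the TSS, and replicate 1 had none there.

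In the conservative list the counts were 36 of 53 large subunit genes (67.9%) and 28 of 39 small subunit genes (71.8%). In replicates 1, 2 and 3 the large subunit counts were 40, 38 and 31 of 53 (75.5%, 71.7% and 58.5%) and the small subunit counts 27, 24 and 22 of 39 (69.2%, 61.5% and 56.4%). The large subunit share was thus the higher one within each replicate and the lower one in the conservative list. The means were 68.6% ± 8.92 and 62.4% ± 6.45 (SD, n = 3 each), and the difference was not tested. By chromosome, the conservative counts were 13 of 19 genes on 2L, 14 of 20 on 2R, 12 of 14 on 3L, 14 of 23 on 3R and 11 of 15 on X. RpS3A, the 1 member on chromosome 4, was not hit in that list. Some members have a gene on the opposite strand that starts close by upstream, at most 928 bp away, as at RpS7. Of these, 40 of 55 (72.7%) were hit, and 24 of the other 37 (64.9%). Neither this split nor the one by chromosome was made for all protein-coding genes, and no difference was tested.

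Genes with related symbols differed within families. Of the 92 genes, 25 fall into 12 families by symbol alone, and 12 of the 25 were hit in the conservative list. Outside these families, 52 of the 67 genes were hit. Sequences were not compared, so members of a family need not be near copies. In 10 of the 12 families exactly 1 member was hit. The hit members were RpL7, RpL10Ab, RpL22, RpL24, RpS5a, RpS10b, RpS14b, RpS15Aa, RpS19a and RpS28b. The members without a hit were RpL7-like, RpL10Aa, RpL22-like, RpL24-like, RpS5b, RpS10a, RpS14a, RpS15Ab, RpS19b, and both RpS28a and RpS28-like. RpL22-like, RpS5b, RpS10a and RpS19b are known from the germ line, while RpL22, RpS5a, RpS10b and RpS19a are the broadly used copies. RpL34b and RpL34a were both hit, at ranks 178 and 1017, and of RpL37-1 and RpL37-2 neither was hit in the conservative list. RpL37-1 was nearest to a promoter summit in replicates 1 and 2, at ranks 3349 and 1052, with positions of 36 and −58 bp. Counted by family, where 1 hit member is enough, 63 of 79 protein families (79.7%) had a hit. No share by family was taken for the other genes, so this value has no background beside it. How reads that fit 2 near copies were placed is not stated in the sources used here, so values of near copies are less certain than those of single genes.

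RpS14b and RpS14a, tandem neighbours on X that encode the same protein of the small subunit, give the closest contrast, and their promoters are shown with the same marks.
RpS14b, chrX:7934748-7934927, plus strand: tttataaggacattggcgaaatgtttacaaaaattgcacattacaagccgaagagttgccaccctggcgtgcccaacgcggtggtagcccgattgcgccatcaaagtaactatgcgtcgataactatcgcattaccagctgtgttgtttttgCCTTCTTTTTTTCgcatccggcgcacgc
RpS14a, chrX:7933592-7933771, plus strand: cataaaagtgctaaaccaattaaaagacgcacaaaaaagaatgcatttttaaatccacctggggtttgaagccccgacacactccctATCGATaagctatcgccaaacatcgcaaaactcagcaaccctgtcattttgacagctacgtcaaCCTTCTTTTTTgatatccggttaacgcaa
RpS14b had a conservative summit 74 bp upstream at rank 1992, and replicate ranks of 2905, 1736 and 2023. RpS14a had no summit in any of these lists, and its peak in the ranked list, with a −log10 of the IDR (the irreproducible discovery rate) of 0.63, was far below the threshold of 2. Both promoters held a run of pyrimidines just after the TSS. RpS14a held a DRE core that starts 63 bases before the TSS, and the printed stretch of RpS14b held none.

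Of the 92 genes, 28 were nearest to no conservative summit, and they fell into 4 classes. For 3 a summit lay within 250 bp but nearer to a neighbour. At RpL41, which encodes a very short peptide of the large subunit, the summit at rank 189 lay 93 bp away and 89 bp from NaCP60E. At RpS20 the summit at rank 563 lay 189 bp away and 144 bp from CG17271. RpS20 itself was the nearest gene to a summit in all 3 replicate lists, at ranks 3447, 618 and 472. In replicate 1 that was a weak summit at 14 bp, and a stronger one within 250 bp, at rank 636, was nearer to another gene. In replicates 2 and 3 the positions were −134 and −136 bp. Counted by any summit within 250 bp, 67 of the 92 genes were hit, against 20.7% of all genes.

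RpL13A had a peak past the threshold, 47 bp upstream, that stands in the ranked list and not in the thresholded one. For 12 genes the ranked list held a peak below the threshold. They were RpS6, the target of S6 kinase, at a −log10 IDR of 1.92, RpL37-1 at 1.9, RpS28a at 1.84, RpS5b at 1.1 and RpS3 at 1.09, with RpL7-like, RpS15Ab, RpS14a, RpL40, RpL10Aa, RpL35 and RpL24-like between 0.83 and 0.2. RpS6, RpL37-1 and RpS28a lay just outside the threshold of 2. The last 12 had no peak near the TSS in the ranked list, namely RpL5, RpL9, RpL10, RpL15, RpL21, RpL22-like, RpL37-2, RpL38, RpS3A, RpS10a, RpS19b and RpS28-like.

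Of the 12 genes hit in a single replicate list, RpS15, RpS18 and RpLP1 were in that of replicate 1 and in the conservative list, and RpS26 in that of replicate 2 and in the conservative list. RpL41, RpL9, RpS3A and RpL24-like were the nearest genes in replicate 1 only, at ranks 189, 1397, 1613 and 3281. At RpL41 the site itself recurred, since summits at ranks 153 and 311 lay 93 and 95 bp away in replicates 2 and 3, and 89 and 87 bp from NaCP60E. RpL5, which binds the 5S rRNA with RpL11, and RpL40, made as a fusion with ubiquitin, were hit in replicate 2 only, at ranks 2652 and 2840. RpS6 was hit in replicate 3 only, at rank 1918.

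Several genes without a hit lie in repeat-rich surroundings. Soft-masked bases are those that RefSeq writes in lower case as repeats. They made up a median of 10.4% of the 20 kb around the TSS of the 64 hit genes and 12.5% around the 28 others. For the other protein-coding genes the medians were 12.8% with a hit and 12.6% without. By the median, the 28 were thus near the level of other genes and the 64 below it. A share above 20%, a split chosen after the values were seen, was found at 8 of the 92 genes, of which 2 were hit, against 62 of the other 84 (73.8%). The 6 without a hit were RpL38, RpL15, RpL10Aa, RpS3A, RpL10 and RpL21, from 39.9% at RpL38 to 27.4% at RpL21. Among the other protein-coding genes the hit shares were 20.2% above and 24.1% up to 20%. The part of repeats in the missing hits was not tested.

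Summits lay close to the TSS. The best promoter summit of the 64 genes had a median position of −14.5 bp, where minus is upstream, with quartiles at −53.5 and 13 bp. For the 2301 other genes with a promoter summit the median was −55 bp. Within 50 bp of the TSS lay 43 of the 64 (67.2%), against 35.4% of the other genes. The replicate medians were −9, −17 and −36 bp for ribosomal protein genes, against −56, −66 and −91 bp for the others. Both sets lay furthest upstream in replicate 3, and within each replicate the ribosomal protein genes lay nearer to the TSS. The share within 50 bp averaged 65.8% ± 7.97 for ribosomal protein genes and 29.6% ± 6.81 for the others (SD, n = 3 each), without overlap.

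**Figure D4:**
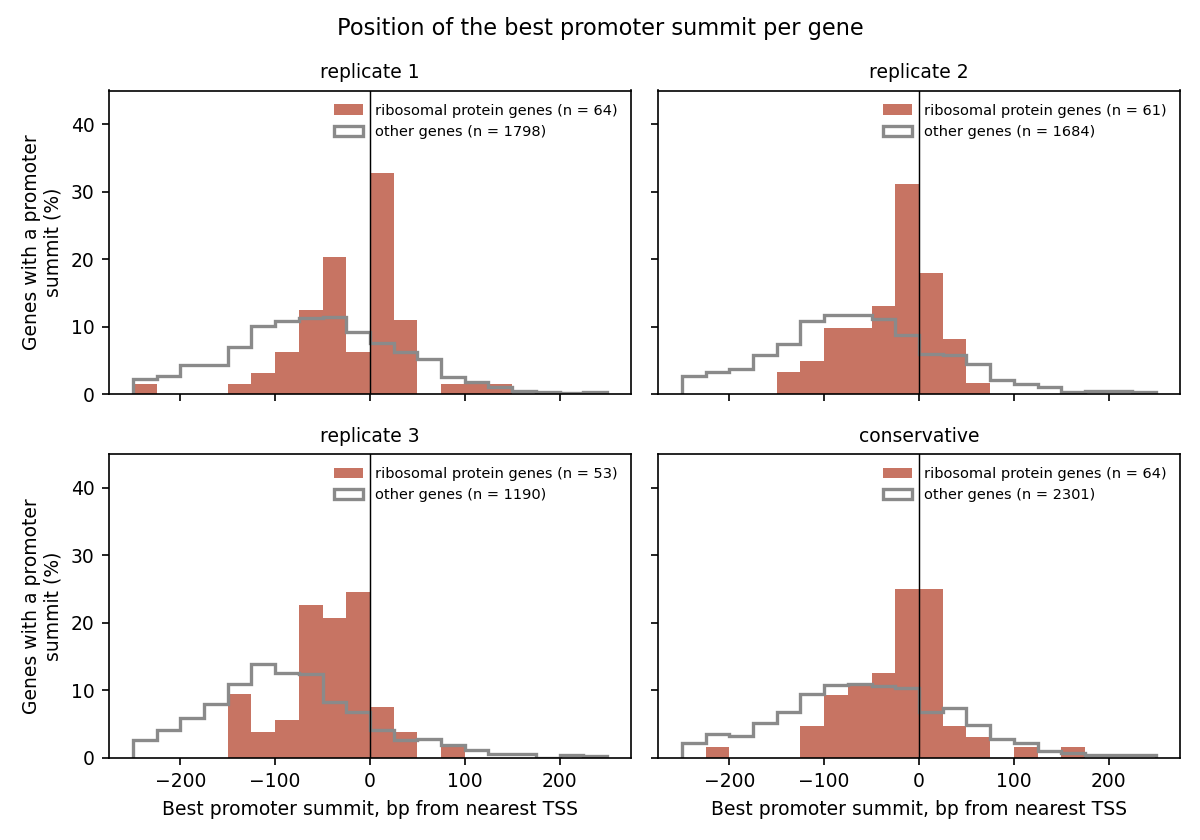
Position of the best promoter summit of each hit gene in bp from the nearest TSS, in bins of 25 bp, as a percentage of the genes with a promoter summit, for ribosomal protein genes (filled) and the other protein-coding genes (line) in the 4 lists. The ribosomal protein genes pile up at the TSS with a conservative median of −14.5 bp, against −55 bp for the others.

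The number of annotated start sites touches this comparison. Of the 92 genes, 47 (51.1%) had 1 annotated TSS, against 73.6% of the other protein-coding genes, and the distance to the nearest of several start sites is never longer than to one of them. Measured from the TSS of most transcripts, the medians were −40.5 bp for ribosomal protein genes and −59 bp for the others, and 48.4% and 27.8% lay within 50 bp. The gap in medians was then smaller, and the gap in shares remained in the same direction.

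Single genes held their position between replicates. For the 42 ribosomal protein genes with a promoter summit near the same TSS in every replicate, the range of the 3 positions had a median of 32 bp, from 5 bp at RpL29 to 179 bp at RpL23, and the 739 other genes had the same median. RpS27 lay at −15.7 ± 3.8 bp, RpL34b at −90.3 ± 5.7 bp, RpL7 at 27.0 ± 7.2 bp and RpL32 at −124.3 ± 12.1 bp (SD, n = 3 replicates each). These 4 positions differ by more than their spread between replicates. Measured from the nearest annotated TSS, the best summits of the family thus did not share 1 distance. Each of the 4 genes has more than 1 annotated TSS, and the spread does not cover the choice among them. RpL23A at −93.0 ± 31.6 bp and RpL34b cannot be told apart by position.

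The promoters shared words around the TSS that the choice of genes did not use. Words were searched on both strands from 250 bases before to 50 bases from the TSS of most transcripts, and a match is a match of letters alone. A run of 6 or more pyrimidines at the TSS was held by 76.6% of the 64 hit genes and 71.4% of the 28 without a hit, against 19.4% of other genes with a promoter summit and 18.8% of all genes. The TCT initiator, taken as CTTT or CTTC starting within 2 bases of the TSS, was held by 37.5% and 39.3%, against 3.69% and 3.93%. In both measures the hit and unhit ribosomal protein genes had close shares, far above those of the other genes.

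The DRE, TATCGATA, to which DREF binds, was held by 29.7% of the hit and 28.6% of the unhit ribosomal protein genes, against 14.3% of other genes with a promoter summit and 9.08% of all genes. Its core ATCGAT, which every DRE contains, was held by 42.2% and 35.7%, against 690 of the 2301 other genes with a promoter summit and 22.9% of all genes. The Motif 1 core GGTCACAC, to which M1BP binds, was held by 18.8% of the hit genes and by 1 of the 28 without a hit, against 11.0% and 7.64%. Motif 7, CANCNCTA, was held by 31.2% and 21.4%, against 25.2% and 15.6%. TATAAA, the TATA box, was held by 43.8% and 46.4%, against 41.0% and 45.1%, and in the hit genes its median position was −173.5 bases, upstream of the TSS. CACGTG, the E-box, was held by 10.9% and 7.14%, against 4.74% and 4.17%. GAGAG was held by 15.6% and 17.9%, against 36.1% and 30.3%. TAATTA, a core that many homeodomains bind, was held by 18.8% of the hit and 35.7% of the unhit ribosomal protein genes, against 484 of the 2301 other genes with a promoter summit and 20.1% of all genes. Its 12 matches in the hit genes had a median position 193 bases before the TSS.

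A scan of 8191 words of 7 bases within 75 bp of each promoter summit gave a second view, and the words below were picked after their values were seen. AAAGAAA or its reverse complement TTTCTTT was found at 25 of 64 summits of ribosomal protein genes (39.1%), against 8.0% of 2301 summits of other genes. CCGGAAA or TTTCCGG was found at 18 (28.1%), against 1.83%, and ATCGATA or TATCGAT, which overlaps the DRE, at 23 (35.9%), against 15.1%. In whole promoters, AAAGAAA was held by 54.7% of the hit and 32.1% of the unhit ribosomal protein genes, against 14.6% of other genes with a promoter summit and 15.9% of all genes. CCGGAAA was held by 37.5% and 14.3%, against 2.43% and 2.9%. The 27 CCGGAAA matches in hit genes had a median position 14 bases after the TSS of most transcripts, inside the transcribed stretch. They ranged from −215 to 37. The positions given above for RpL14 and RpL32 were counted from the TSS furthest upstream. TTTCTTT lies in pyrimidine runs, so it is not separate from the runs counted above.

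Median ranks differed by word, as a description of these genes. The 19 hit genes with a DRE had a median rank of 941, against 1131 for the 45 without. With the DRE core the order was the other way, at 1017 for 27 genes and 920 for the 37 without, and with the Motif 1 core it was 1457 for 12 genes, against 930 for 52. With AAAGAAA the median rank was 780 for 35 genes, against 1406 for the 29 without, and with CCGGAAA it was 1212 for 24 genes, against 846 for 40. Of the 64 hit genes, 49 held at least 1 of the DRE core, the Motif 1 core, Motif 7 and CCGGAAA. Those with none of these, 15 in all, included RpL3, RpL22, RpL24, RpL29, RpL34b, RpLP2, RpS4, RpS5a, RpS7, RpS14b, RpS21, RpS26, RpS27 and RpS27A, among them RpS27 and RpL34b of the strongest summits.

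**Figure D5:**
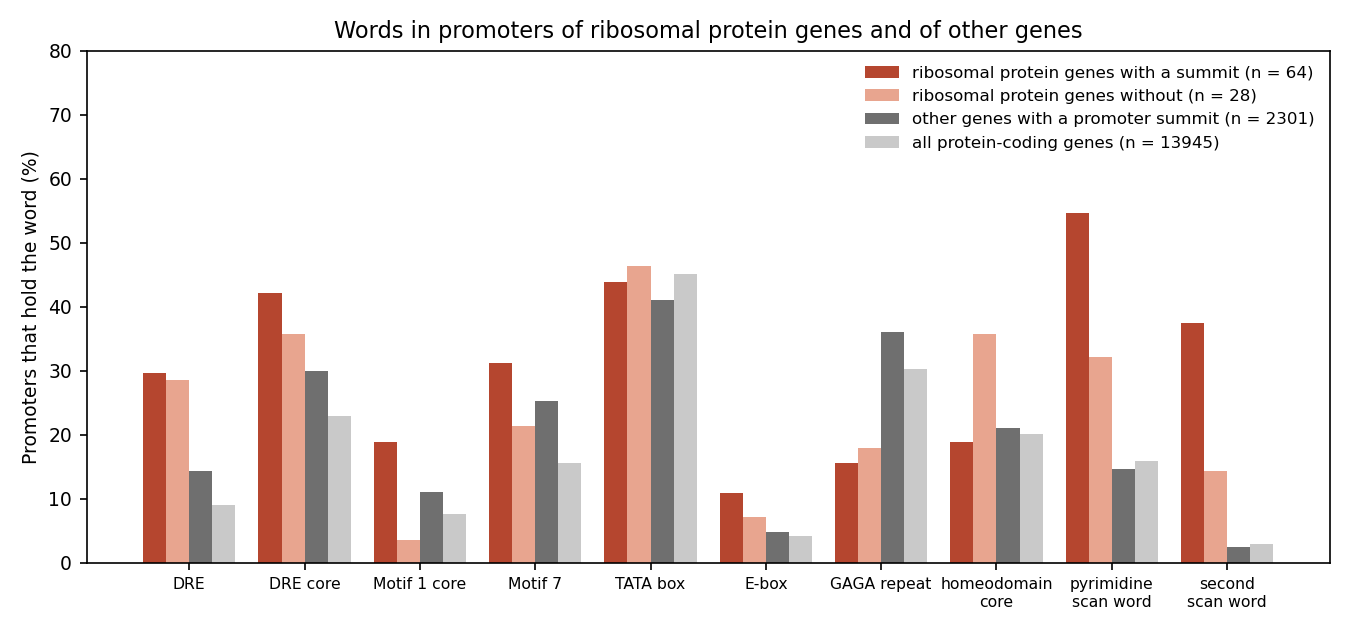
Percentage of promoters that hold each word, for ribosomal protein genes with and without a conservative summit, other genes with a promoter summit and all protein-coding genes. The pyrimidine scan word (54.7%) and the second scan word (37.5%), both picked for their excess in these genes, lie above the other genes with a summit (14.6% and 2.43%), and the homeodomain core does not (12 of 64 and 484 of 2301).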

How the data were processed

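Per the labels, 3 biological replicates of 1 group were immunoprecipitated with an anti-GFP antibody after sonication to fragments of 200 to 800 bp. An age field that cannot be an embryo's age in hours was ignored and the age taken from the source name. The authors deposited, on dm6, peak lists for each replicate and for the series, per the text files beside them. Some are thresholded by the irreproducible discovery rate (IDR), at 0.01, and some ranked. Each peak has a deposited signal value and summit offset, and the ranked lists also give −log10 of the IDR. The aligner and the peak caller are not given in the sources used, and read depth is unknown. The conservative list was used as the main one. Which replicates it compares is not stated. The longest list served as an alternative, 4 other series-level lists were not used, and neither were the 16 columns of unnamed single-replicate values in the 2 series-level ranked lists used here.

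Summits, written 1-based, were assigned to the nearest protein-coding TSS of Ensembl release 115, and genes that share it were all counted. Ranks by signal were taken within each list. Sequence came from RefSeq on dm6, where 30540 of 30593 annotated start codons (99.83%) read ATG.

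The genes and lists were chosen with earlier results of these data known. Every ribosomal protein gene is counted, and a few are not reported by name here. Named with values are the 10 of highest conservative signal among those hit in all 3 replicates, and the genes of families by symbol. So are genes with no conservative summit, those whose best summit lies beyond 250 bp and those hit in 1 replicate. The replicates are separate samples per the labels. Shares are counts over genes, with no test across genes. The assignment was tested on simulated summits. Python 3.11.15, pandas 2.3.3, pysam 0.24.0 and samtools 1.23.1 were used.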

Additional observations from a re-analysis of the deposited data

Results flagged for a closer look

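RpL13A, a large subunit protein gene on 3R, had a strong peak in data that the counts above do not use. The ranked conservative list held a peak with a signal of 336.8 whose summit, at chr3R:5624427, lay 47 bp upstream of its TSS. Its −log10 IDR of 5 was past the threshold of 2, and its signal ranked 563 among the 5095 peaks past the threshold. The thresholded conservative list does not hold it. Replicates 1 and 2 showed the same, with signals of 152.7 and 139.6, 64 and 52 bp upstream, at ranks 326 of 3833 and 464 of 3456. The ranked lists held 152 such peaks in the conservative case, 132 in replicate 1 and 103 in replicate 2, so RpL13A is 1 of many. Why they are missing from the thresholded lists was not tested.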

How the results depend on the processing

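With the peaks past the threshold of the ranked list put back, 65 of the 92 ribosomal protein genes were hit, against 24.4% of all genes. The count of genes nearest to a summit and the count with a promoter summit stayed within 1.5 times the reported 64 under every alternative but 1. Keeping the 1000 conservative peaks of highest signal left 32 genes by both counts, against 6.72% and 4.26% of all genes. Leaving out 1 replicate at a time was not done on the conservative list of 4943 peaks. The peaks of 1 remaining replicate list that overlap a peak of the other were taken instead, 1995 to 2486 peaks. These lists gave 51 to 58 genes nearest to a summit (all genes 11.8% to 14.1%) and 51 to 57 with a promoter summit (7.59% to 9.67%). Their median position was −26 to −14 bp and their median percentile 62.8 to 68.8. A difference from the conservative values thus also holds the change of list. In both remaining full lists 51 to 58 genes were hit (11.6% to 14.0%). The median percentile depends on the list it is taken in. It was 58.9 among conservative peaks found in all 3 replicate lists and 46 among the 1000 strongest, a list that drops the weaker peaks by construction. For the recurrent peaks the cause was not tested. The median position was −40.5 bp from the TSS of most transcripts. The direction was upstream under each alternative. Giving a shared start site to 1 gene, an alternative added after the data were seen, left 64 genes, against 23.4% of all genes. No paired analysis was possible because the labels give 1 group of samples, so no sample has a partner in another. Both gene sets come from the same libraries and were compared within each replicate. Depth behind the lists is unknown, so a gene without a peak was not detected as bound and is not shown to be unbound.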
